A study of Danio rerio with 4 samples.

Results

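Untreated zebrafish larvae (Danio rerio) at 120 hours after fertilization were described from the 2 control columns of the deposited expression table, 2 of the 4 libraries of the series. Those columns were chosen by their treatment label, and the table held 32520 distinct gene IDs. Control larvae stood in E3 solution at 28.5 °C and received no particles over the window from 72 to 120 hours in which the other larvae of the study were exposed to PM2.5. RNA was taken from whole bodies, 5 to 7 larvae per group, and the labels give neither strain, sex nor parentage. Nothing in the labels says that the control libraries came from separate clutches, so the spread between them may be technical. Values are in TPM, a transcript level corrected for gene length and scaled to the same total in every library. Where a pair of values is given, the first is control 1 and the second control 2. A TPM is therefore a share of the measured RNA. Levels of different genes can be set side by side, subject to the gene lengths used, which the sources do not give.

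By this age a zebrafish larva swims, hunts by sight and digests, while its stock of yolk runs out. Its trunk is packed with fast muscle, its eye has a clear lens and a retina with rods and several kinds of cone, and its liver, pancreas and gut are at work. An ancestral duplication of the whole genome in the teleost fishes left many genes in a pair of copies, usually named a and b.

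The RNA was concentrated in few genes. The 10 most abundant genes held 17.2% of TPM in control 1 and 16.9% in control 2, and the 100 most abundant held 44.8% and 43.8%. In control 1, 138 genes sufficed for 50% of TPM, and in control 2 it took 149. At the other end, 6397 IDs were at 0 in both libraries. A level of 1 TPM or more was reached by 20296 genes in control 1 and 20548 in control 2, and 1000 TPM or more by 155 and 150. The 30 genes with the highest TPM were the same in both libraries, and 98 of the top 100 were shared. TPM keeps no record of the reads behind it, so the depth is unknown and no counting interval can be given.

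Parvalbumin 1, pvalb1, a calcium buffer that lets fast muscle relax quickly, was the most abundant gene, with 35150 TPM in control 1 and 35021 TPM in control 2 (35086 ± 91.7 TPM, SD, n = 2). The muscle actin actc1b followed with 28409 and 27130 TPM (27769 ± 904 TPM), and pvalb2 with 21502 and 20544 TPM (21023 ± 677 TPM). Together these 3 genes held 8.51% of control 1 and 8.27% of control 2. Of the top 30 genes, 12 were on a list of skeletal muscle genes and held 14.6% of all TPM. Among them were the regulatory light chain mylpfa at 11804 and 11573 TPM, the light chain mylz3 at 10299 and 9885 TPM, and the calcium pump of the sarcoplasmic reticulum, atp2a1, at 3891 and 4006 TPM.

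The mitochondrial genome supplied 6 of its protein-coding genes to the top 30. Its cytochrome oxidase genes were nearly level with one another: mt-co1 had 15396 and 16065 TPM, mt-co2 had 15461 and 15077 TPM, and mt-co3 had 14383 and 14129 TPM. The list of ribosomal protein genes supplied 5, led by rplp0 at 5124 and 4896 TPM. The remaining places went to the surface keratin krt4, the lens crystallin crybb1 and 5 genes on no list. Of these 5, si:dkey-151g10.6, for which RefSeq gives the synonym rpl41, had 7809 and 7665 TPM, above rplp0. By that synonym it too is a ribosomal protein gene, which the list left out. The nucleoside diphosphate kinase nme2b.2 had 7271 and 7122 TPM, and the ADP/ATP carrier slc25a5 had 5643 and 5653 TPM. Cytoplasmic actin, actb2, had 4040 and 3852 TPM. The fifth was a mitochondrial transfer RNA gene, ENSDARG00000082789, whose TPM does not measure the mature transfer RNA.

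**Figure D1:**
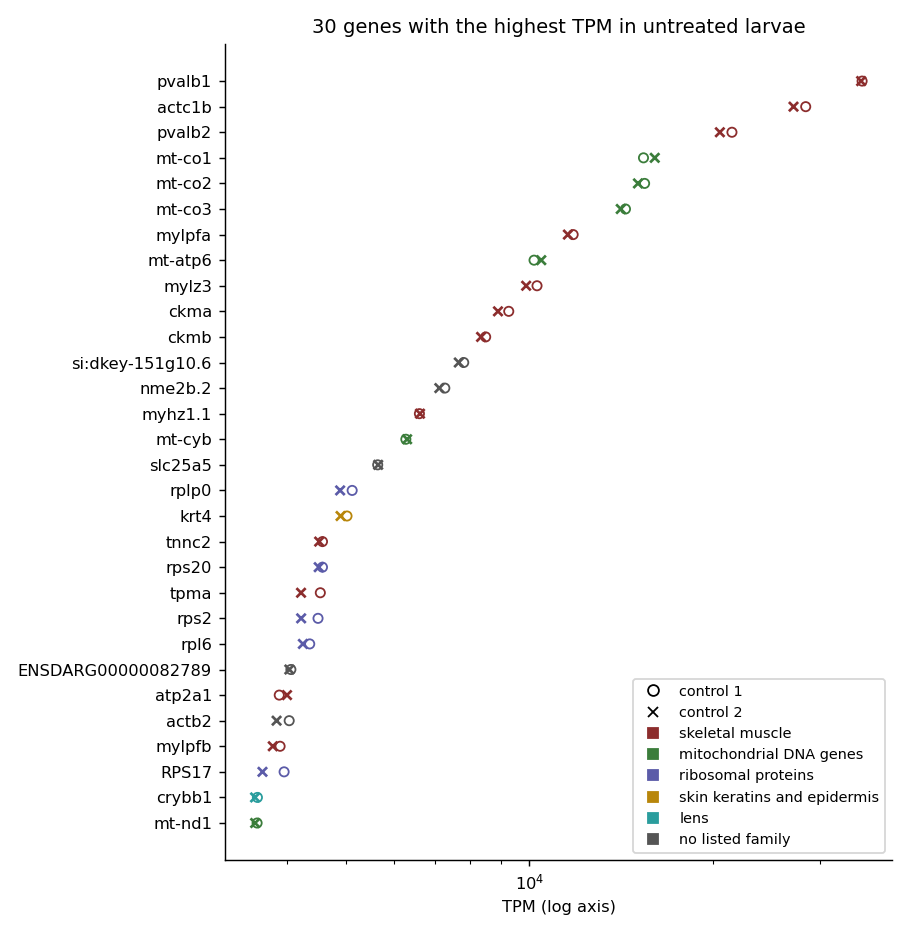
TPM (log axis) of the 30 genes with the highest mean TPM, 1 row per gene, with control 1 as a circle and control 2 as a cross, coloured by gene list. The top rows hold muscle and mitochondrial genes, from pvalb1 at 35086 TPM down to ckmb at 8410 TPM. By list, the 30 rows include 12 muscle, 6 mitochondrial protein-coding and 5 ribosomal protein genes.

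Gene lists for 36 tissues and cell functions, with 1916 genes in all, covered 57.7% of TPM in control 1 and 56.6% in control 2. Lists for 28 tissues held 30.5% and 30.02%. The other 8 lists, grouped as housekeeping, held 27.3% and 26.6%, and include cell cycle and immediate early genes. In RNA from whole bodies, fewer cells of a type and less RNA per cell cannot be told apart, so a low share does not measure the size of an organ.

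Skeletal muscle had the highest share of any list, 18.2% in control 1 and 17.8% in control 2 (18.0% ± 0.294, SD, n = 2), and 109 of its 111 genes reached 1 TPM. The listed ribosomal proteins held 14.9% and 14.3%, spread evenly. Their top 3 genes held 9.53% of the list, against 46.7% for the top 3 muscle genes. Not on that list was si:dkey-151g10.6, with the synonym rpl41, at 7809 and 7665 TPM. The 13 protein-coding genes of the mitochondrial genome held 7.93% and 7.995%, and the nuclear genes of the respiratory chain held 2.19% and 2.13%.

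Among organs, the lens held 3.22% and 3.14%, more than the skin keratins and epidermal genes at 2.2% and 2.17%. Photoreceptors held 1.81% and 1.83%, and neurons and synapses 1.36% and 1.43%. The lens list, with 78 genes, and the photoreceptor list, with 85, each took a larger share than the neuronal list, with 153. Liver plasma proteins held 0.906% and 0.900%, and apolipoproteins 0.909% and 0.888%. The intestine held 0.297% and 0.300%, the exocrine pancreas 0.253% and 0.245%, and red blood cells 0.199% and 0.198%.

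Smaller shares fell to ionocytes (0.0766% and 0.0801%), pigment cells (0.0663% and 0.0677%), the kidney (0.0501% and 0.0528%), blood vessels (0.0359% and 0.0389%), myeloid cells (0.0228% and 0.0244%) and heart muscle (0.0233% and 0.0227%). Lymphoid genes held 0.00618% and 0.00693%, of which tox, a factor also found in the brain, made up 71.9%. Germ cell genes held 0.00137% in each library. The vitellogenins, yolk precursors made by the liver of adult females, held 0.000196% and 0.000156%, and 0 of 8 reached 1 TPM.

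**Figure D2:**
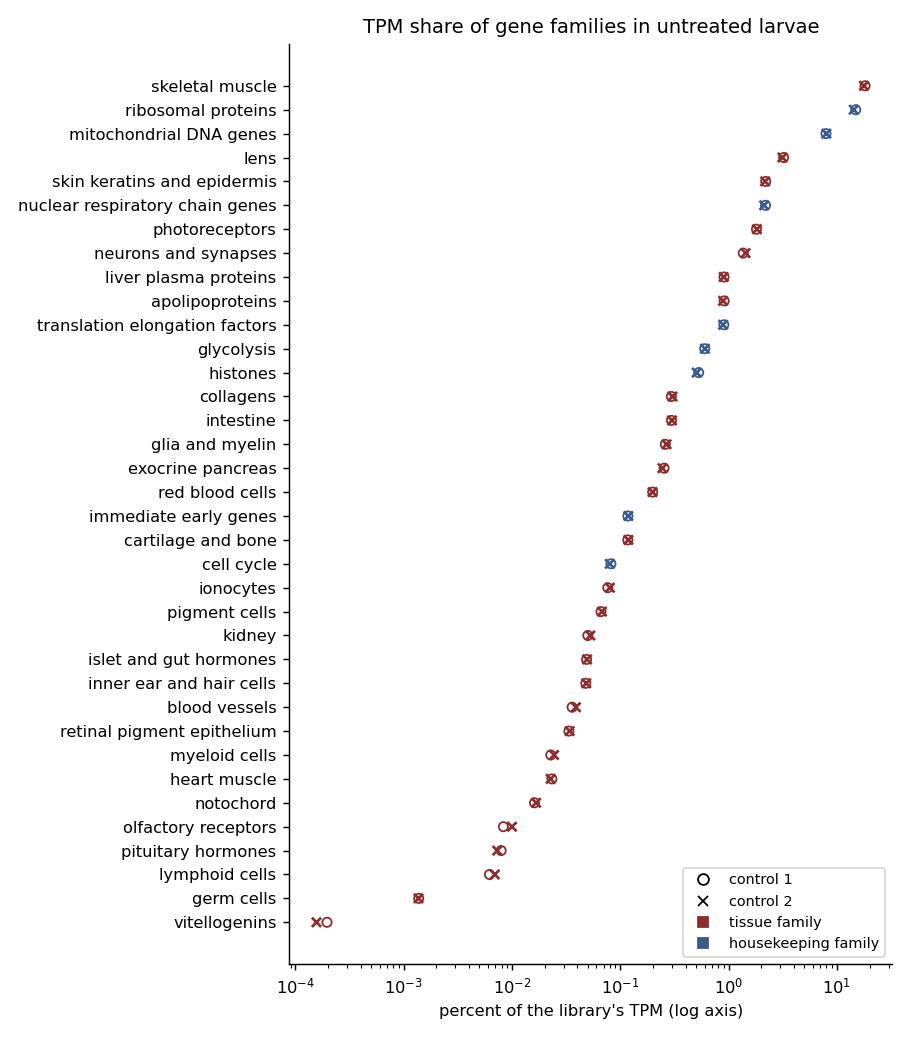
Share of the library's TPM (percent, log axis) held by each of 36 gene lists, with control 1 as a circle and control 2 as a cross, and tissue lists in red and housekeeping lists in blue. Shares run from 18.0% for skeletal muscle to 0.000176% for vitellogenins, and the libraries separate visibly only in the lowest rows.

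In protein families typical of muscle, a few members carried most of the transcripts. The sums cover the whole body and include genes of other lists, such as pvalb8 of the inner ear list. Of 9 parvalbumin genes, pvalb1 held 61.5% of the summed TPM and pvalb2 36.8%, while pvalb4, the next, had 515 and 506 TPM. Of the skeletal and cardiac actins, actc1b held 89.8%, and acta1b was next at 2021 and 1952 TPM. Myosin heavy chains were shared more evenly. Of the summed TPM of 12 fast and slow heavy chain genes, myhz1.1 on chromosome 5 held 48.6%, myhz1.2 held 20.9% and myhz2 held 16.2%. The counting of reads shared by similar heavy chain copies is not given, so this split is uncertain. The slow heavy chain smyhc1 had 350 and 343 TPM, against 6605 and 6620 TPM for myhz1.1. Among the fast troponin I genes, the inhibitory subunit of the thin filament, tnni2a.4 held 90.2%.

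Heart genes stood far lower. The cardiac light chain myl7 had 31.4 and 26.7 TPM, the binding protein mybpc3 had 33.8 and 32.6 TPM, and the atrial heavy chain myh6 had 0.652 and 0.649 TPM. The gene symbol actc1 names a cardiac actin in mammals, so the name of actc1b does not place its transcripts in the zebrafish heart.

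In the lens, the crystallins, which fill fibre cells and give them their refractive power, came mainly from the gamma M class. Its 35 genes summed to 19542 and 18927 TPM, the 13 beta crystallins to 9744 and 9591 TPM, and the 3 alpha crystallins to 66.8 and 68.7 TPM. Small heat shock proteins of the alpha class are a major product of the mammalian lens. In these larvae cryaa had 65.7 and 67.7 TPM and was the sole alpha gene with a mean of 1 TPM or more. The next, cryabb, had 1.11 and 0.705 TPM. The highest gamma M gene, crygm2d13, had 1942 and 1863 TPM and held 9.89% of its class. The crygm2d copies, all on chromosome 9, averaged between 288 and 1903 TPM, whereas crygm2a and crygm6 were at 0 in both libraries. Among the beta crystallins, crybb1 held 36.9%. How reads that match several near-identical copies were counted is not given in the sources used here, so the split within the gamma M class is uncertain.

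In the retina, the visual opsins, the light-catching pigments of rods and cones, summed to 9418 and 9408 TPM. The rod opsin rho had 3425 and 3508 TPM and the ultraviolet cone opsin opn1sw1 had 2922 and 2879 TPM. The red opsin opn1lw2 had 1595 and 1515 TPM, the green opsin opn1mw1 had 885 and 892 TPM, and the blue opsin opn1sw2 had 550 and 560 TPM. The order was the same in both libraries, and each step between neighbours was larger than the difference between libraries.

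The red and green opsins lie in tandem arrays whose members are known in zebrafish to be used at different ages. In each array 1 member dominated: opn1lw1 had 0.9997 and 1.97 TPM beside opn1lw2, and opn1mw2 had 19.1 and 22.2 TPM beside opn1mw1. Of the other green opsins, opn1mw3 had 0.205 and 0.180 TPM and opn1mw4 was at 0 in both libraries. The cone phosphodiesterase subunit pde6ha, at 2364 and 2477 TPM, was the third gene of the photoreceptor list.

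Zebrafish globins are likewise divided into embryonic or larval and adult genes. The early beta globins were led by hbbe1.1 at 585 and 615 TPM, followed by hbbe2 at 194 and 185 TPM. Of the alpha globins, hbae3 had 473 and 449 TPM and held 79.8% of the class. The adult-type genes hbaa1, hbaa2 and hbba2, and both IDs named hbba1, were at 0 in control 1 and in control 2. The rule for reads that match several similar globin copies is not given, so these splits and low values are uncertain.

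Keratins summed to 19935 and 19602 TPM, led by krt4 of the outer layer at 5025 and 4904 TPM. The keratin krt91 had 3472 and 3407 TPM and krt5 had 3074 and 3061 TPM. Type I collagen, made by skin, bone and tendon, was divided almost equally between its alpha 1 copies, with 480 and 493 TPM for col1a1a and 486 and 494 TPM for col1a1b.

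Digestive and lipid-handling genes were led by transport proteins. The apolipoproteins of circulating lipid particles apoa2, apoa1a and apoa1b had 2703 and 2592, 2222 and 2172, and 1648 and 1670 TPM. Fatty acid binding proteins mark successive organs in zebrafish. The liver gene fabp10a had 1640 and 1493 TPM, the intestinal genes fabp1b.1 and fabp2 had 659 and 689 TPM and 459 and 438 TPM, and fabp6 of the distal gut had 550 and 529 TPM. The brain gene fabp7a, found in radial glia, had 580 and 564 TPM. In the pancreas, trypsin prss1 had 642 and 610 TPM and held 55.1% of 3 trypsin genes. The endocrine list was led by neurod1, at 188 and 195 TPM, a factor also made in brain and retina. Insulin, ins, had 11.1 and 11.8 TPM.

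Neuronal genes were led by brain creatine kinase ckbb at 983 and 959 TPM and beta synuclein sncb at 862 and 845 TPM. The RNA-binding protein elavl3 of young neurons had 170 and 200 TPM, and the synaptic protein snap25a had 310 and 339 TPM. For glia, glutamine synthetase glula had 655 and 647 TPM, the filament gene gfap 215 and 224 TPM, and the myelin gene mbpa 71.7 and 67.7 TPM. The kidney list was led by ptpro at 56.1 and 61.4 TPM and gata3 at 56.5 and 60.9 TPM, genes that neurons use too. The tubule cadherin cdh17 had 30.9 and 32.7 TPM, whereas nephrin, nphs1, of the podocytes that filter blood in the glomerulus, had 0.482 and 0.378 TPM.

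Of 57 defining markers of tissues, 49 had a mean of 1 TPM or more, a share close to the 85.1% of all protein-coding genes with a symbol, so the count by itself says little of the label of whole larvae. Of 21 tissues, 20 had at least 1 such marker. The exception was the lymphoid pair, in which rag1 had 0.80 and 0.664 TPM and lck 0.134 and 0.528 TPM. The other markers under 1 TPM were myh6, nphs1, the pituitary hormones prl (0 and 0.266 TPM) and pomca (0.540 and 0.101 TPM), the globin hbae1.1 and the germ cell gene nanos3. The limit given for similar globin copies holds for hbae1.1 too. Growth hormone, gh1, had 1.42 and 2.49 TPM. Absence of a rare cell type cannot be told apart from its dilution in a whole body.

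By gene biotype, the class that the annotation gives each gene, protein-coding genes held 97.8% of TPM in control 1 and 97.7% in control 2. They made up 25432 of the 32520 IDs. The other 30 biotypes, with 7088 IDs, shared 2.22% and 2.26%, and 5 of them were at 0. Processed transcripts held 0.754% and 0.761%, but 60.1% of that was rps20, a ribosomal protein gene that the table places in this class. Mitochondrial transfer RNA genes held 0.600% and 0.591%, and ENSDARG00000082789, at 4065 and 4042 TPM, made up 68.0% of that. Their TPM counts reads on the annotated gene, corrected for a short length, and does not measure the mature transfer RNA. Long intergenic RNAs held 0.358% and 0.378%, and 405 of 1493 reached 1 TPM.

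Ribosomal RNA genes held 0.131% and 0.152% and the mitochondrial ribosomal RNAs 0.113% in each library. The shares by biotype are of the measured RNA, after any selection of RNA before sequencing. They do not give the makeup of all RNA in the larva. Small nuclear RNAs held 0.00168% and 0.00153%, with 6 of 541 at 1 TPM or more. Genes of the miRNA biotype held 0.0439% and 0.0469%, and 72 of 434 reached 1 TPM. The highest were dre-mir-124-5, whose miRNA is typical of neurons, at 52.7 and 70.3 TPM, dre-mir-124-6 at 40.1 and 25.3 TPM, and dre-mir-21-1 at 23.0 and 28.5 TPM. The 2 libraries ordered dre-mir-124-6 and dre-mir-21-1 differently. These values count reads on the annotated gene and do not measure the mature miRNA.

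Of the 25432 protein-coding genes, 1983 were at 0 in both libraries and 75.9% had a mean of 1 TPM or more. Genes known only by the name of a sequenced clone reached 1 TPM in 46.7% of 6077 cases, against 85.1% of 19355 genes with a symbol. Chromosome 4, whose long arm is known in zebrafish for repeated gene families and compact chromatin, stood apart. There 693 of 1475 protein-coding genes reached 1 TPM, 47.0% on the mean, with 46.3% in control 1 and 47.8% in control 2. On the other numbered chromosomes together it was 78.0%, and the lowest of them was chromosome 22 at 68.1%. Clone-named genes made up 50.9% of chromosome 4, against 21.6% elsewhere, and reached 1 TPM in 23.4% of cases there, against 50.4% elsewhere. Genes with a symbol also reached 1 TPM less often on chromosome 4, in 71.4% of 724 cases, against 85.7% of 18511 elsewhere. The unknown rule for reads that match several copies makes low values in repeated families uncertain. The largest share of RNA came from chromosome 3, which carries pvalb1 and mylpfa, with 9.73% of TPM.

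**Figure D3:**
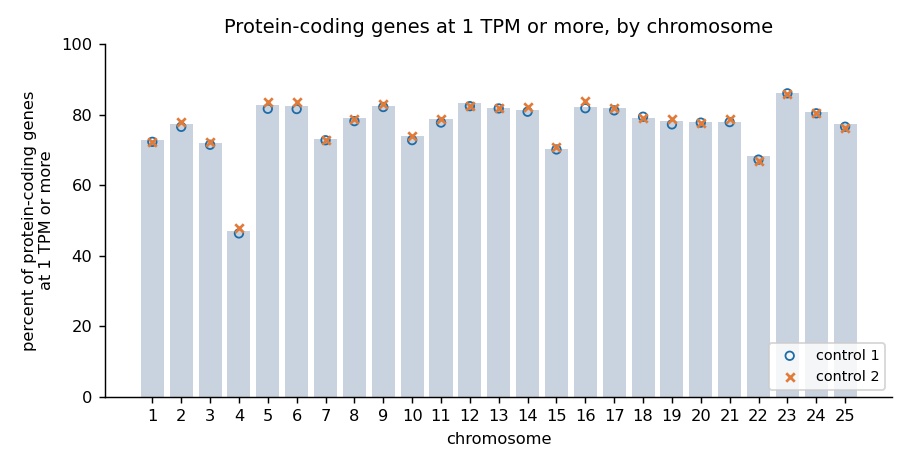
Percent of protein-coding genes at 1 TPM or more on each of chromosomes 1 to 25, with the bar for the mean TPM of the 2 libraries, control 1 as a circle and control 2 as a cross. Chromosome 4 stands at 47.0%, below every other chromosome, and chromosome 23 is highest at 86.2%.

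Several large gene families were mostly at 0 or under 1 TPM. These groups were picked after their values had been seen. Of all protein-coding genes with a symbol, 4.13% were at 0 in both libraries and 85.1% reached 1 TPM. How reads that match several similar copies were counted is not given, so low values in these families are uncertain. Of 94 trace amine-associated receptors, which sense amines in the nose, 86 were at 0 in both libraries and 0 reached 1 TPM. Of 141 odorant receptors, 71 were at 0, and or109-11, at 1.41 and 1.61 TPM, alone reached 1 TPM. Of 206 pim-related kinases, 143 were at 0 and 6 reached 1 TPM. Of 40 immunoglobulin heavy variable genes, 39 were at 0. Each olfactory receptor is used by few neurons, and whether this lowers the receptor values in a whole body was not tested. Of other genes on the olfactory list, adcy3a had 19.7 and 24.3 TPM. The olfactory marker protein ompa had 16.1 and 14.0 TPM.

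Of the hox genes, which give positions along the body axis, 44 of 48 reached 1 TPM, up to 16.7 and 22.8 TPM for hoxc6a. Of the claudins, which seal epithelia, 27 of 34 reached 1 TPM, and cldnb had 149 and 125 TPM. Both counts are near the 85.1% of all protein-coding genes with a symbol.

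Duplicated genes were followed through symbols that differ only in a final a or b and lie on different chromosomes. There were 2703 such pairs. In 2116 of them both copies together had at least 10 TPM, and these held 19.7% of all TPM. Copy a was higher in 1122 pairs and copy b in 994. In 246 pairs, 11.6%, a single copy held 90% or more (12.2% of pairs in control 1 and 11.7% in control 2). In 620 pairs, 29.3%, neither copy held over 60%, and 1250 lay between. The higher copy held 68.8% in the median pair, and the lower copy was under 1 TPM in 81 pairs and at 0 in 8.

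Control libraries gave nearly the same division. The share of copy a differed between them by 2.29 percentage points in the median pair and by at most 26.98 points, and the higher copy was the same in 1992 pairs (94.1%). Pairs with 1 copy at 90% or more were most frequent among the strongly expressed: 33.3% of the 87 pairs summing to 300 TPM or more, against 12.4%, 10.7% and 10.4% in the classes from 100 to 300, 30 to 100 and 10 to 30 TPM. The class with the highest sums also had the smallest difference between libraries, 0.505 points in the median pair.

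**Figure D4:**
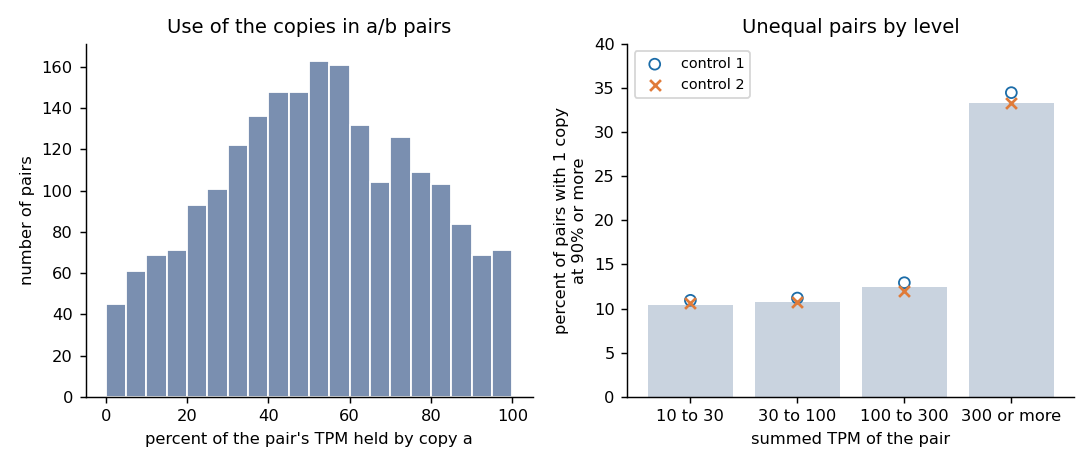
Left, number of a/b pairs (of 2116) by the percent of the pair's mean TPM held by copy a; right, percent of pairs in which 1 copy holds 90% or more, by summed TPM, with bars for the mean, circles for control 1 and crosses for control 2. Pairs are most numerous near 50%, and the share of unequal pairs is 33.3% at 300 TPM or more, against 10.4% to 12.4% in the lower classes.

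Muscle pairs with high levels covered the whole range. The creatine kinases of muscle were divided almost evenly, with ckma at 9256 and 8887 TPM and ckmb at 8483 and 8337 TPM, so that ckma held 51.9%. For the regulatory light chain, mylpfa held 75.2% and mylpfb had 3903 and 3797 TPM. For skeletal actin, acta1b held 77.0%. For fast troponin T, tnnt3b had 3051 and 3022 TPM and held 91.8%, against 274 and 267 TPM for tnnt3a. The actc1 pair was not scored, because the symbol actc1a belongs to 2 IDs.

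Near-equal pairs elsewhere included the ribosomal proteins rpl5a and rpl5b (49.2% from copy a), col1a1a and col1a1b (49.8%), apoa1a and apoa1b (57.0%), snap25a and snap25b (57.4%) and the myelin genes mbpa and mbpb (54.5%). Among unequal pairs, fabp10a held 99.7% at 1640 and 1493 TPM, while fabp10b had 4.70 and 4.51 TPM. Of the ribosomal precursor gene fau, faua held 99.4%. Ferritin heavy chain copy fth1a held 97.2%. Brain creatine kinase ckbb held 97.0% of its pair, against the near-even split of the muscle enzymes. In the lens, cryba1b held 99.2%, whereas cryba2a and cryba2b were close, at 45.2% from copy a.

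In glycolysis, the copies differed by enzyme: eno1a held 86.6%, tpi1b 93.8%, pkmb 71.7% and aldoab 63.9% of their pairs. Developmental regulators had low sums. The eye factor pax6a held 75.6% of 68.7 TPM, the cartilage factor sox9a held 66.6% of 34.6 TPM, and the kidney and ear factor pax2a held 65.0% of 23.5 TPM. The pairs of hoxb1, wt1, mitf and nkx2.2 summed to between 2.45 and 11.3 TPM, with wt1a, a factor of the glomerulus, at 1.76 and 2.39 TPM and wt1b at 1.70 and 2.15 TPM. The pairs rest on symbols and chromosomes and were not checked against a list of known duplicates. The symbol rule has exceptions: eif5a and eif5b, which it pairs and counts as unequal, are different proteins and no duplicates.

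Copies that share a symbol and differ in a number after the point gave a second view, on arrays also picked after values were seen. Of 171 arrays with 440 genes, 81 summed to 10 TPM or more, and all members reached 1 TPM in 61 of these. A single member held 90% or more in 25 (30.9%). For arrays of 2 members the figure was 21 of 56 (37.5%), against 11.6% of a/b pairs. Arrays and pairs were not matched for level, and the share among a/b pairs was higher at high levels. Prostaglandin D synthase ptgdsb.1 had 656 and 633 TPM, while ptgdsb.2 was at 0 in both libraries. In contrast, the trypsin copies prss59.1 and prss59.2 had 241 and 252 TPM and 260 and 265 TPM. Among sodium pump genes, atp1a1a.1 had 220 and 245 TPM and atp1a1a.4 had 118 and 116 TPM, the others lying between 6.83 and 35.6 TPM. Reads shared by neighbouring copies make these splits uncertain.

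The spread between the control libraries narrowed with the level. Across the 20495 genes averaging 1 TPM or more, Pearson's r of log2(TPM + 1) was 0.977 and Spearman's rho 0.974. These describe agreement across genes, which are not independent replicates. Of these genes, 95.01% lay within 2-fold of each other in the 2 libraries. It was 81.2% between 1 and 3 TPM, 99.6% between 10 and 30 TPM and 100% from 100 TPM upward. The median size of the log2 ratio was 0.42 in the lowest class and 0.04 at 1000 TPM or more.

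Direction was not even. From 10 to 30 TPM, 66.9% of genes were higher in control 2, whereas at 1000 TPM or more 20.9% were. Of 85 listed ribosomal protein genes with a mean of 1 TPM or more, 73 were lower in control 2. The median of that list was 1597 TPM, within the class where few genes were higher in control 2. Among 9569 genes with a mean of 10 TPM or more, 27 differed by more than 2-fold, of which 11 were protein-coding. Of the 10 with the largest ratios, 8 were noncoding, such as the small nucleolar RNA ENSDARG00000105016 at 32.8 and 3.6 TPM. The cause of this uneven direction was not tested.

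**Figure D5:**
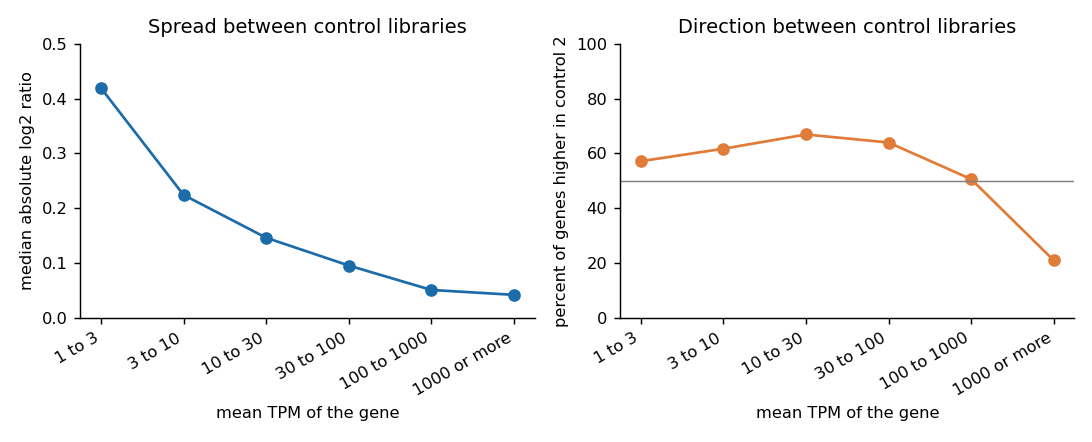
Left, median size of the log2 ratio between control 2 and control 1 by the mean TPM of the gene; right, percent of genes higher in control 2, with a line at 50%. The median ratio goes down to 0.04 at 1000 TPM or more, where 20.9% of genes were higher in control 2.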

How the data were processed

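RNA of whole larvae was sequenced as paired reads of 150 bases, from RNA with an integrity number above 7.8, per the labels. The labels differ on the extraction kit and on the sequencer. The authors deposited 1 table of TPM. Per the submitters' processing notes, cutadapt 1.18 and STAR 2.6.1c were used on GRCz11. How genes were counted, with which annotation, lengths, strand and rule for multiply matching reads, is not given in the sources used here. Without strand, reads of a gene and its antisense partner cannot be told apart. The table had 32925 rows. The 405 rows that repeated an ID carried the same TPM and were used once.

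Only the control columns were read. Shares, ranks and pair splits were computed with Python 3.11.15, pandas 2.3.3, numpy 2.4.6 and scipy 1.17.1, and the scripts were tested on simulated data. With 2 libraries of 1 group no test was run. Means carry the SD, n = 2. Genes were counted from a mean of 1 TPM and pairs from a sum of 10 TPM. Each gene counted in the first list that named it, and of 1121 listed symbols 1059 were found. The gene lists and members were chosen with earlier results of these data known. The text names the 30 most abundant genes, the top 3 of each list and biotype, the pairs with the highest sums, markers, the 10 largest ratios between libraries and a fixed set of pairs. A pair that this rule takes is not reported here. Members of protein families, tandem arrays and receptor groups were added after their values were seen. Alternatives left out each library, mitochondrial or noncoding genes, or the top gene of a list, and moved the thresholds. No sequence or coordinate was used.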

Additional observations from a re-analysis of the deposited data

How the results depend on the processing

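Of 55 values recomputed under alternatives, 33 moved by less than the spread between the libraries, or stayed within 1.5 times for counts, and 22 moved by more. Among them are 24 values with either library left out, which are those of the other library. With 2 libraries a mean share then moves by less than the SD by construction, so these values say nothing of stability. The share of pairs with 1 copy at 90% or more ran from 11.7% to 12.2%. Without mitochondrial DNA genes, the top 10 genes held 15.8%, the top 100 41.6%, ribosomal proteins 16.0%, skeletal muscle 19.7%, lens 3.48% and exocrine pancreas 0.273%. Over protein-coding genes, the top 10 held 17.4%, mitochondrial DNA genes 8.15%, skeletal muscle 18.4% and lens 3.25%. Without its top gene, skeletal muscle held 14.5%, lens 2.82% and exocrine pancreas 0.187%. Genes within 2-fold made up 97.6% with a pseudocount of 1 TPM and 99.7% from a mean of 10 TPM. With no minimum and the pseudocount of 1 TPM they made up 97.7%. That pseudocount lets genes at or near 0 in both libraries pass. The share within 2-fold needs both libraries and cannot be had with either left out.

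The share of unequal pairs was 12.4% from a sum of 1 TPM and 15.0% from 50 TPM, where 633 pairs remained. Alternatives chosen after seeing the data gave 10.9% for the 980 pairs with the same reference symbol and 27.1% with the limit at 80%. A split by protein identity was not run. No paired analysis was possible because the results come from no test and 1 group. Depth is unknown, so a level near 0 is a listed value, not an absence.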
